A study of Homo sapiens with 6 samples.

Results

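The circadian clock genes described here are CLOCK, BMAL1, PER1, PER2, PER3, CRY1, CRY2, NR1D1, NR1D2 and DBP, taken by symbol from the table of gene counts. All 10 were found among its 67140 Ensembl gene identifiers, and all 10 were among the 19254 genes tested. They were measured by mRNA sequencing in KYSE150, an established line of human esophageal squamous cell carcinoma (ESCC). The control hairpin (shCtrl) was carried by 3 libraries, and 3 carried the hairpin against the lncRNA AC007128.1 (shAC007128.1). Both lines were grown in RPMI medium with fetal bovine serum, and the study describes lentiviral delivery and puromycin selection of stable lines. The labels name 1 hairpin and 1 control, so an effect of the lncRNA and any other difference between the lines cannot be told apart. The labels do not say that the 3 samples of a group came from separate cultures, so the p-values may measure only technical spread. They also give no harvest time and no synchronization of the cells, so each value is an average over the culture at an unknown hour.

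The clock of mammalian cells is a loop of transcription and feedback. CLOCK and BMAL1 form a dimer that binds E-box sequences and switches on the PER and CRY genes, whose proteins return to the nucleus and block the dimer. The same dimer drives NR1D1 and NR1D2, which encode the REV-ERB repressors of the BMAL1 gene, and DBP, an output factor that acts through D-box sequences. Epithelial cells run such clocks on their own, in and out of the body.

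In shAC007128.1 cells 5 of the 10 genes were lower than in shCtrl (DBP, PER3, NR1D1, PER1 and NR1D2), and CRY1 was higher, at an adjusted p of at most 0.05 in edgeR's quasi-likelihood test over all genes. The other 4, CLOCK, BMAL1, PER2 and CRY2, did not pass. By the same limit 19.8% of all genes tested were lower and 21.0% higher. When a change of at least 2-fold was also required, 10.1% of all genes were lower and 5.57% higher, while DBP was the 1 clock gene that passed, as lower. The median log2 fold change of the 10 genes was -0.44, with a range from -1.13 to 0.42, beside a median of -0.02 over all genes tested. In 8 of the 10 the ranges of the groups did not overlap (6 lower, 2 higher), which also held for 55.2% of all genes. In these bulk samples, fewer cells that express a gene and less of its RNA per cell cannot be told apart. The plot of scaled counts by sample shows each gene on its own scale.

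**Figure D1:**
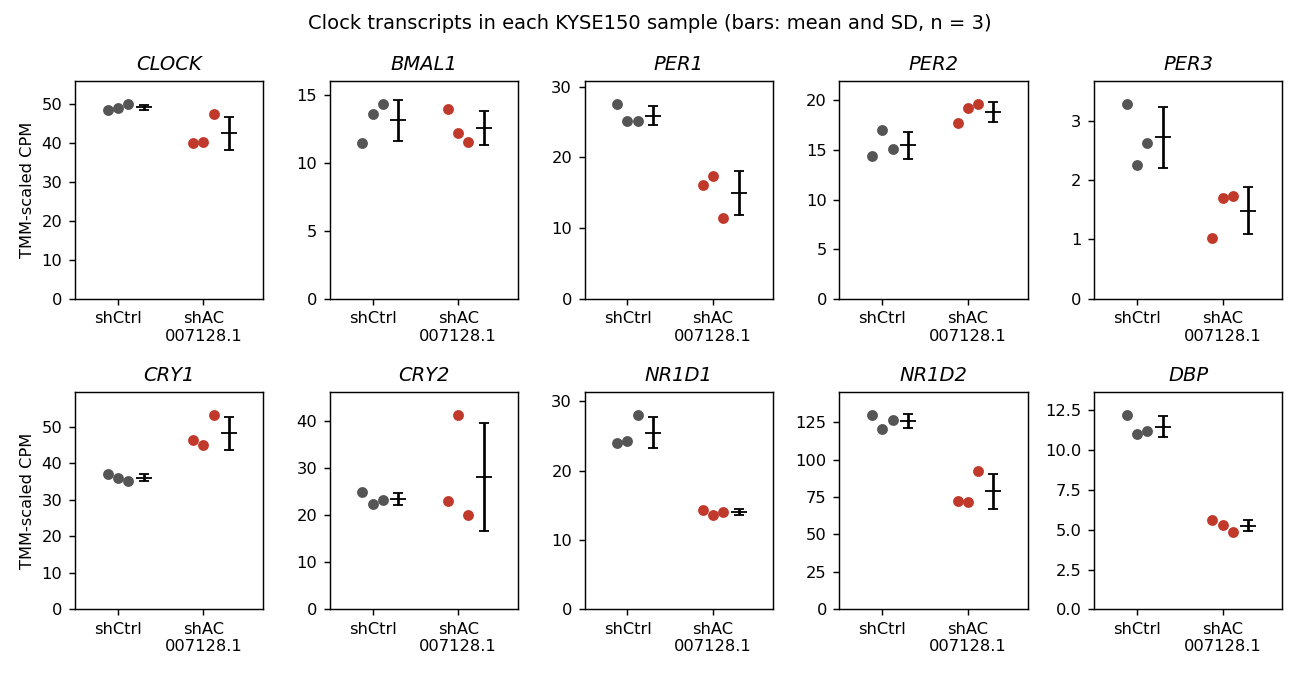
CPM (counts relative to the TMM-scaled library total) of the 10 clock genes in each KYSE150 sample, with 3 shCtrl samples in grey, 3 shAC007128.1 samples in red, and bars for mean and SD. For CLOCK, DBP, PER1, PER3, NR1D1 and NR1D2 every red point lies below every grey point, for CRY1 and PER2 every red point lies above, and for CRY2 shAC007128.1 replicate 2 stands at 41.3 CPM, apart from the other 5 samples.

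Total counts were 65140326 to 78610457 in shCtrl and 55764405 to 60158244 in shAC007128.1 samples, and 3 counts, used as the floor of detection, equal 0.0373 to 0.0546 CPM. AC007128.1 itself had 69, 33 and 53 counts in shCtrl replicates 1, 2 and 3 and 18, 37 and 15 in shAC007128.1 replicates 1, 2 and 3. These overlapping values gave a log2 fold change of -0.77 (edgeR adjusted p = 0.271, standard error 0.51, two-sided exact permutation p = 0.2), so the targeted gene does not check the labels. By qPCR the study reports a lower AC007128.1 level in ESCC cells with the hairpin. Other genes share 782 of the 1853 exonic bases of AC007128.1, so some of its few counts may belong to them. Groups follow the sample titles and descriptions, since the growth and treatment notes are the same for all 6 samples and name both hairpins. All 10 squamous epithelial markers listed were detected, and their summed level was 1346 to 1364 CPM in shCtrl and 2241 to 2730 in shAC007128.1 samples. At an edgeR adjusted p of at most 0.05, 7 of the 10 were higher and 1 lower (DSG3, log2 fold change -1.09). By that limit 21.0% of all genes tested were higher and 19.8% lower. The summed level of 5 fibroblast markers was 15.03 to 16.04 and 20.9 to 23.9 CPM. Of these COL1A1 (mean 13.9 CPM in shCtrl and 17.5 in shAC007128.1) and LUM (1.07 and 4.71) were higher and PDGFRB (0.471 and 0.154) was lower (edgeR adjusted p = 0.0462, 0.00193 and 0.0474), while COL1A2 had no more than 4 counts in any sample and DCN no more than 8. The summed level of 4 endothelial markers was 2.12 to 3.11 and 0.302 to 2.02 CPM, mostly VWF in shCtrl, which had 138 to 197 counts there and 13 to 90 in shAC007128.1 samples and did not pass (edgeR adjusted p = 0.101), while KDR had no more than 5 counts in any sample. PECAM1 did not pass either (log2 fold change 1.49, edgeR adjusted p = 0.251). CDH5, which was not tested, had a mean of 0.321 CPM in shCtrl and 0 in shAC007128.1 samples. The leukocyte markers (5 genes) summed to 59.3 to 68.3 and 14.7 to 24.0 CPM, of which CD68 made nearly all and was lower (log2 fold change -1.87, edgeR adjusted p = 0.000458), with PTPRC at no more than 9 counts in any sample. A same-strand gene shares 1765 of the 2163 exonic bases of CD68, so its reads may not all be from CD68. CD3E and CD14 did not pass (log2 fold changes 0.61 and -0.66, edgeR adjusted p = 0.394 and 0.514). Mitochondrial genes took 9.69 to 10.2% of counts in shCtrl and 7.68 to 9.72% in shAC007128.1 samples. The part of these differences in the clock values was not tested. The floor covers counting error only.

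Promoter sequence is shown for the 5 genes past the test that hold a clock motif upstream of a RefSeq start. It shows which motif each of them carries. The windows run from 250 bases before to 50 after each start (RefSeq, GRCh38.p14), and the 10 genes have 15 of them. The motifs were searched on both strands and were the E-box CACGTG, its variant CACGTT, the D-box as TTATGTAA or TTACGTAA, the cAMP response element TGACGTCA, and TAGGTCA, the core of the element that REV-ERB and ROR proteins share. Capitals mark the matches below, each printed 5′ to 3′ on the strand of the gene.

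PER1 (chr17:8152547-8152602, minus strand): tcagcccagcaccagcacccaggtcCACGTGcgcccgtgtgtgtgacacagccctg
PER3 (chr1:7784089-7784146, plus strand): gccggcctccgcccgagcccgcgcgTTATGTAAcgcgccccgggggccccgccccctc
CRY1 (chr12:107093608-107093663, minus strand): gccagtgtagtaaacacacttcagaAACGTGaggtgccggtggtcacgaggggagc
NR1D1 (chr17:40100727-40100782, minus strand): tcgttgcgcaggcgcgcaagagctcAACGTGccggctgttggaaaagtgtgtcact
NR1D2 (chr3:23945902-23946046, plus strand): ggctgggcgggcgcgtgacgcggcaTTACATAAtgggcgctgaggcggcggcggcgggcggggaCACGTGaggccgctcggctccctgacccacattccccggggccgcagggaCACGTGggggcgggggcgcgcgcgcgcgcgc

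The E-box CACGTG was present in windows of PER1 and NR1D2, both lower in shAC007128.1 cells, and in 7.26% of all 35116 windows. DBP, NR1D1 and PER3 were lower too, and their windows held no CACGTG. All such shares count single windows, while some of the 10 genes have 2. The variant CACGTT was in windows of CLOCK, PER2, CRY1, CRY2 and NR1D1, which moved in both directions or did not pass, and in 5.34% of all windows. AACGTG is that variant read on the other strand. The D-box was in windows of PER2, PER3 and NR1D2 (1.01% of all windows), with TTACATAA the reverse complement of TTATGTAA. For BMAL1 the REV-ERB element lay in the first exon, in the 5′ UTR (chr11:13277810-13277836, plus strand), in the site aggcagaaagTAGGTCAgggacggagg, 31 bases from the start, and 1.85% of all windows held it. CRY2 held it too. The DBP window held none of these letters. The cAMP response element, which mediates induction of PER1 by signals, was in none of the 15 windows and in 1.85% of all windows. A match is a run of letters and does not show that a factor binds there. The lack of a match holds for these windows only, since the rest of each gene was not searched.

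**Figure D2:**
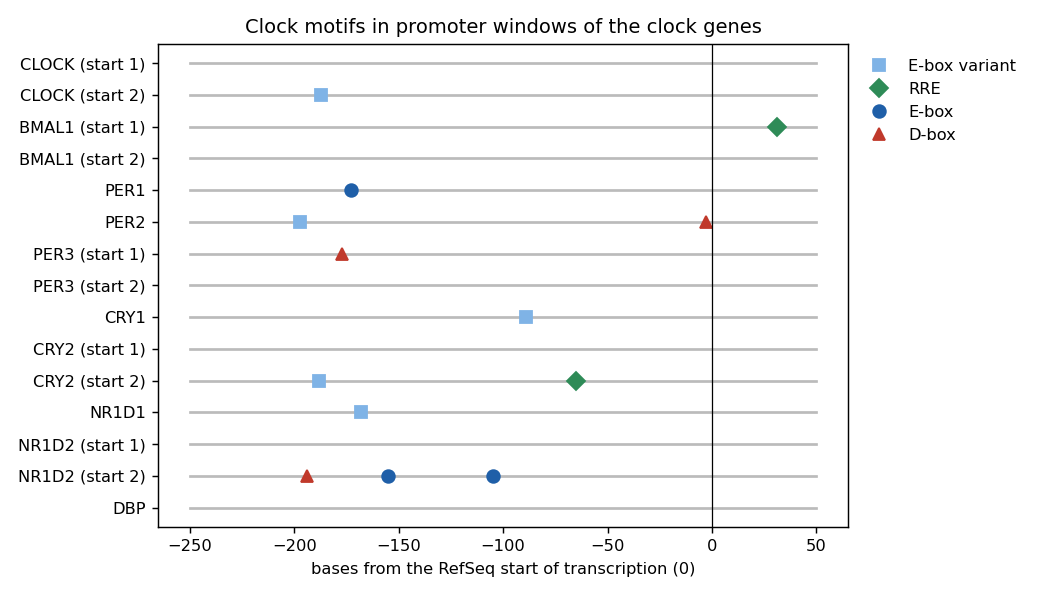
Positions of clock motifs in the 15 promoter windows of the 10 clock genes, in bases from the RefSeq start of transcription, with 1 grey line for each window. NR1D2 holds 2 E-boxes and a D-box upstream of one of its starts, at -155, -105 and -194, while the DBP window holds no marker.

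The activators had the smallest log2 fold changes of the 10 in size. BMAL1 (chr11:13276652-13387266, plus strand, GENCODE v44 on GRCh38, as for the other genes) is the partner whose level cycles, and its transcript stood at 11.5, 13.6 and 14.3 CPM in shCtrl replicates 1, 2 and 3 and at 14.0, 12.2 and 11.5 in shAC007128.1 replicates 1, 2 and 3. The groups overlapped, with a log2 fold change of -0.06 (edgeR adjusted p = 0.751, standard error 0.14). CLOCK (chr4:55427903-55546909, minus strand), the partner with histone acetyltransferase activity, was at 48.5, 49.0 and 49.95 CPM in shCtrl and at 39.9, 40.3 and 47.4 in shAC007128.1 samples. All 3 values of the second group were below the first, but the log2 fold change of -0.21 did not pass (edgeR adjusted p = 0.119, standard error 0.09). Without shAC007128.1 replicate 3, the highest of its group, it did (-0.30, edgeR adjusted p = 0.00941), and it also passed when libraries were scaled by their totals only (-0.28, edgeR adjusted p = 0.045). An opposite-strand neighbour of CLOCK, TMEM165, shares 76 of its 11533 exonic bases and was higher in shAC007128.1 cells (log2 fold change 0.51, edgeR adjusted p = 0.0186).

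The PER genes encode the subunits of the repressor complex that casein kinase marks for degradation. PER1 and PER3 were lower and PER2 did not pass. PER1 (chr17:8140472-8156506, minus strand), the member most quickly induced by outside signals, had 27.5, 25.1 and 25.1 CPM in shCtrl samples and 16.1, 17.3 and 11.4 in shAC007128.1 samples. Its mean fell to 57.7% of the control, with a log2 fold change of -0.79 (edgeR adjusted p = 0.00739, standard error 0.16). Every shAC007128.1 sample was below every shCtrl sample. PER2 (chr2:238244044-238290102, minus strand), the member most needed for rhythms in animals, had 14.4, 17.0 and 15.1 CPM in shCtrl and 17.7, 19.2 and 19.6 in shAC007128.1 samples. These values did not overlap either, in the opposite direction, but the log2 fold change of 0.28 did not pass (edgeR adjusted p = 0.0825, standard error 0.11).

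PER3 (chr1:7784291-7845177, plus strand), which is dispensable for rhythms in animals, was the least counted of the 10 genes. It had 3.28, 2.26 and 2.62 CPM in shCtrl and 1.03, 1.69 and 1.74 in shAC007128.1 samples, and its log2 fold change was -0.87 (edgeR adjusted p = 0.0382, standard error 0.27). Every shAC007128.1 value was below every shCtrl value. The call was lost when any 1 of shCtrl replicates 1, 2 and 3 or shAC007128.1 replicates 1 and 2 was left out (edgeR adjusted p = 0.0545 to 0.128). Of its 8128 exonic bases 1350 are shared with opposite-strand genes, among them UTS2, which had 0 counts in every sample.

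CRY1 and CRY2 encode the proteins that hold the dimer silent, CRY1 being the stronger and later repressor. CRY1 (chr12:106991364-107093549, minus strand) stood at 37.1, 36.1 and 35.1 CPM in shCtrl and at 46.4, 45.0 and 53.2 in shAC007128.1 samples. It rose to 134% of the control (log2 fold change 0.42, standard error 0.09, edgeR adjusted p = 0.0103), and each shAC007128.1 sample was above each shCtrl sample. CRY2 (chr11:45847118-45883248, plus strand) was at 24.9, 22.3 and 23.2 CPM in shCtrl and at 23.1, 41.3 and 19.99 in shAC007128.1 samples. The high replicate 2 set both its mean and its spread, and the log2 fold change of 0.26 (edgeR adjusted p = 0.46, standard error 0.26) became -0.12 without that sample (edgeR adjusted p = 0.498).

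NR1D1 and NR1D2 encode REV-ERBα and REV-ERBβ, heme-binding nuclear receptors that close the second loop by repressing BMAL1. NR1D2 (chr3:23945286-23980617, plus strand) had 129.7, 120.7 and 126.4 CPM in shCtrl and 72.6, 71.8 and 92.4 in shAC007128.1 samples. Its log2 fold change was -0.67 (edgeR adjusted p = 0.00291, standard error 0.11). NR1D1 (chr17:40092793-40100589, minus strand) had 24.0, 24.3 and 28.0 CPM in shCtrl and 14.4, 13.6 and 14.1 in shAC007128.1 samples, a log2 fold change of -0.86 (edgeR adjusted p = 0.00076, standard error 0.11). Both receptors were lower in every shAC007128.1 sample. NR1D1 overlaps the end of THRA, a thyroid hormone receptor gene on the other strand, in 473 of its 2630 exonic bases, so reads of the pair may be mixed if strand was not used. The library steps that the study describes name no marking of strand. THRA went the other way, from a mean of 16.9 CPM in shCtrl to 35.4 in shAC007128.1 cells (log2 fold change 1.07, standard error 0.16, edgeR adjusted p = 0.00179).

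DBP (chr19:48630030-48637379, minus strand), a PAR-domain leucine zipper factor whose transcript follows CLOCK and BMAL1 activity closely, had the largest change of the 10. It stood at 12.2, 11.01 and 11.2 CPM in shCtrl and at 5.59, 5.32 and 4.87 in shAC007128.1 samples. The mean fell to 45.8% of the control, with a log2 fold change of -1.13 (edgeR adjusted p = 0.000583, standard error 0.13). Across all settings and left-out samples the value stayed between -1.20 and -1.08. Its opposite-strand neighbour SPHK2, which shares 661 of the 6485 exonic bases of DBP, was lower as well (log2 fold change -0.68, edgeR adjusted p = 0.00276). As for NR1D1 and THRA, reads of the pair may be mixed if strand was not used. The genes whose 6 values lay nearest to those of DBP, among 12434 genes whose log2 CPM averaged 1 or more, were TLCD2, ACTR1B, ATG101, CTC-338M12.4 and YDJC, at distances of 0.06 to 0.132 in centred log2 CPM. The nearest of the clock genes were NR1D1 at 0.433 and PER1 at 0.508, and the farthest was CRY1 at 1.91. The 5 nearest genes had log2 fold changes of -1.15 to -1.04. With 2 groups of 3 samples, such a distance largely follows the fold change, so it adds little to it.

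Levels of different genes were compared per kilobase of annotated exon, since long transcripts collect more reads. In shCtrl cells NR1D2 was the highest at 21.7 ± 0.79 CPM per kb (SD, n = 3), before NR1D1 at 9.67 ± 0.846, CRY1 at 7.55 ± 0.201 and CLOCK at 4.26 ± 0.0631. CRY2 at 3.79 ± 0.209 and PER1 at 3.70 ± 0.197 overlapped. So did PER2 at 2.18 ± 0.192 with BMAL1 at 1.89 ± 0.214, and BMAL1 with DBP at 1.77 ± 0.0982 CPM per kb. PER3 was the lowest at 0.335 ± 0.0635. In shAC007128.1 cells the order changed at 2 places where the samples of the genes did not overlap. CRY1 at 10.1 ± 0.927 CPM per kb stood above NR1D1 at 5.33 ± 0.15. PER2 at 2.66 ± 0.142 stood above PER1 at 2.14 ± 0.444, but narrowly. The lowest PER2 sample was at 2.497 CPM per kb and the highest PER1 sample at 2.475. These lengths count every annotated exon, so a gene that uses short isoforms is set too low.

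**Figure D3:**
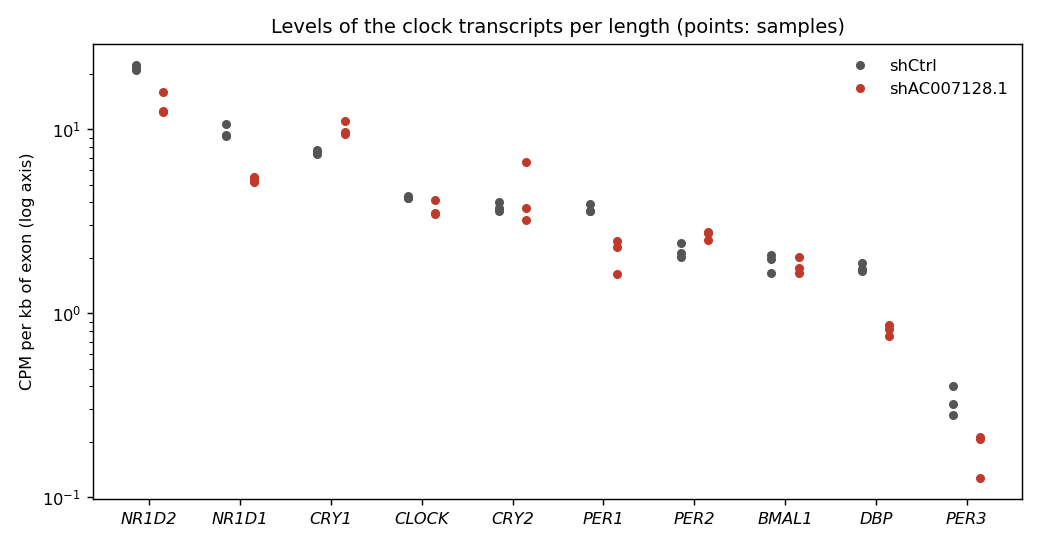
CPM per kb of annotated exon on a log axis for the 10 clock genes, ordered by their mean in shCtrl, with each point 1 sample (grey shCtrl, red shAC007128.1). The levels run from 21.7 for NR1D2 to 0.335 for PER3 in shCtrl, and the red points of CRY1 lie above those of NR1D1.

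Ratios within a sample do not depend on how libraries are scaled and show whether relatives changed unequally. The log2 ratio of PER1 to PER2 was 0.94, 0.56 and 0.73 in shCtrl and -0.14, -0.15 and -0.78 in shAC007128.1 samples. PER1 was thus the more counted gene in each control sample and the less counted in each shAC007128.1 sample. The difference was -1.10, and the exact permutation test (two-sided) gave p = 0.1, the smallest that 3 samples against 3 allow, and an adjusted p of 0.233 over 7 pairs. PER2 to PER3 differed by 1.18 and BMAL1 to BMAL2 by -0.66, both without overlap and with the same exact permutation p. For PER1 to PER3 the difference was 0.08 (shCtrl 3.27 ± 0.20, shAC007128.1 3.35 ± 0.62, SD, n = 3), and for NR1D1 to NR1D2 it was -0.18 (-2.31 ± 0.13 and -2.48 ± 0.20), with exact permutation p of 0.9 and 0.4. CRY1 to CRY2 differed by 0.22 (exact permutation p = 0.7) and CLOCK to NPAS2 by 0.33 (exact permutation p = 0.3). With 3 samples a group this exact permutation test cannot reach 0.05 for any of the 7 ratios.

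**Figure D4:**
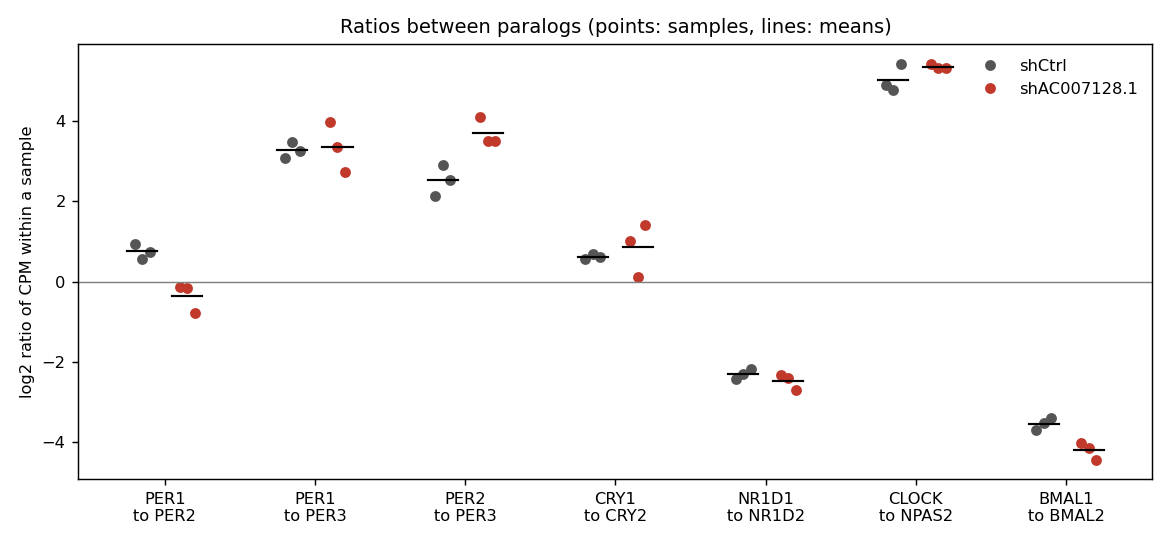
Log2 ratio of the CPM of related clock genes within each sample (grey shCtrl, red shAC007128.1, lines for means of 3). The samples of the groups separate for PER1 to PER2, PER2 to PER3 and BMAL1 to BMAL2, and overlap for the other 4 pairs.

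The other genes of the clock pathway, 42 on 7 lists, moved in both directions. Of the 37 tested, 8 were lower and 13 higher, with a median log2 fold change of 0.07, where 19.8% of all genes were lower and 21.0% higher. These shares are the background for the count in each list that follows. Among 2 further activators, BMAL2, a close relative of BMAL1 that can also pair with CLOCK, rose from 153 ± 3.51 to 232 ± 16.7 CPM (SD, n = 3; log2 fold change 0.60, standard error 0.07, edgeR adjusted p = 0.00076). NPAS2, a relative of CLOCK, was at 1.53 ± 0.322 and 1.04 ± 0.135 CPM and did not pass (log2 fold change -0.56, edgeR adjusted p = 0.128). Of the ROR activators of the BMAL1 gene, RORA did not pass and RORB had no counts in any sample.

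Among 5 genes listed as further E-box repressors, 2 were lower, and the 1 that was higher was TIMELESS. BHLHE41 and BHLHE40 (DEC2 and DEC1) compete with CLOCK and BMAL1 for E-boxes and are themselves targets of the dimer. BHLHE41 went from 17.4 ± 0.474 to 8.15 ± 1.85 CPM (log2 fold change -1.09, standard error 0.18, edgeR adjusted p = 0.00282) and BHLHE40 from 68.0 ± 0.33 to 50.4 ± 1.17 (log2 fold change -0.43, edgeR adjusted p = 0.00263). TIMELESS, known mainly for replication fork protection in mammals, rose from 72.5 ± 2.09 to 106 ± 1.95 CPM (log2 fold change 0.54, edgeR adjusted p = 0.000838). Of the D-box factors, NFIL3, the repressor that opposes DBP at the same sequence, fell from 83.5 ± 1.47 to 43.1 ± 4.47 CPM (log2 fold change -0.95, standard error 0.09, edgeR adjusted p = 0.000299). The DBP relative TEF did not pass, and HLF had at most 5 counts in a sample.

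Of 12 genes that act on the stability of PER and CRY proteins, 2 were lower and 4 higher. CSNK1E, the casein kinase 1 epsilon that phosphorylates PER proteins, fell from 364 ± 8.45 to 226 ± 23.3 CPM (log2 fold change -0.69, edgeR adjusted p = 0.00081). A same-strand gene, TPTEP2-CSNK1E, shares 1316 of the 7098 exonic bases of CSNK1E, so its reads may not all be from CSNK1E. CSNK2A1, a catalytic subunit of casein kinase 2, fell from 273 ± 9.35 to 188 ± 0.577 CPM (log2 fold change -0.54, edgeR adjusted p = 0.000492). BTRC, a ubiquitin ligase subunit that recognises phosphorylated PER, rose from 25.01 ± 1.68 to 43.7 ± 3.68 CPM (log2 fold change 0.81, edgeR adjusted p = 0.000829). The other 3 that rose were PRKAA1, a kinase of CRY1 in energy stress, its relative PRKAA2, and USP2, a ubiquitin protease. The PRKAA2 call, at 0 to 24 counts a sample, was lost in each fit that left out 1 sample (edgeR adjusted p = 0.057 to 0.0759) except that without shCtrl replicate 2. It was also lost without the filter on low counts and with a replicate block (edgeR adjusted p = 0.0583 and 0.0675). PRKAA2 was not tested with counts divided by 4 or with a minimum of 10 counts in all samples. The USP2 call was lost in each fit that left out 1 sample (edgeR adjusted p = 0.0737 to 0.147) except that without shCtrl replicate 1. It was also lost with scaling by totals alone, without the filter, with the minimum of 10 counts and with the block (edgeR adjusted p = 0.0506 to 0.111).

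Of 7 genes that carry signals to PER1 and PER2, 1 was lower and 3 higher. NR3C1, the glucocorticoid receptor, rose from 81.7 ± 6.75 to 134 ± 10.2 CPM (log2 fold change 0.71, edgeR adjusted p = 0.000997). HSF1, the heat shock factor, rose from 71.0 ± 7.74 to 105 ± 4.22 CPM (log2 fold change 0.56, edgeR adjusted p = 0.00336). CRTC2, a coactivator of CREB, rose from 51.9 ± 1.82 to 72.1 ± 8.77 CPM (log2 fold change 0.47, edgeR adjusted p = 0.00996), while its relative CRTC1 fell (log2 fold change -0.60, edgeR adjusted p = 0.0111).

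The 10 genes listed as outputs of the clock in many tissues went both ways, with 2 lower and 4 higher of 9 tested. CDKN1A, the cell cycle inhibitor p21, fell from 141 ± 3.69 to 42.9 ± 4.64 CPM (log2 fold change -1.72, standard error 0.10, edgeR adjusted p = 3.83e-05). KLF10 rose from 15.9 ± 0.237 to 53.3 ± 6.27 CPM (log2 fold change 1.74, standard error 0.11, edgeR adjusted p = 4.95e-05). WEE1, the kinase that holds cells before mitosis, is a known E-box target like DBP. It moved opposite to DBP, from 36.5 ± 5.87 to 114 ± 7.09 CPM (log2 fold change 1.64, standard error 0.13, edgeR adjusted p = 0.000109). The other listed outputs that passed were NAMPT, the rate-limiting enzyme of NAD salvage, which was lower (log2 fold change -0.71), and FKBP5 and KLF11, which were higher (1.30 and 0.89).

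**Figure D5:**
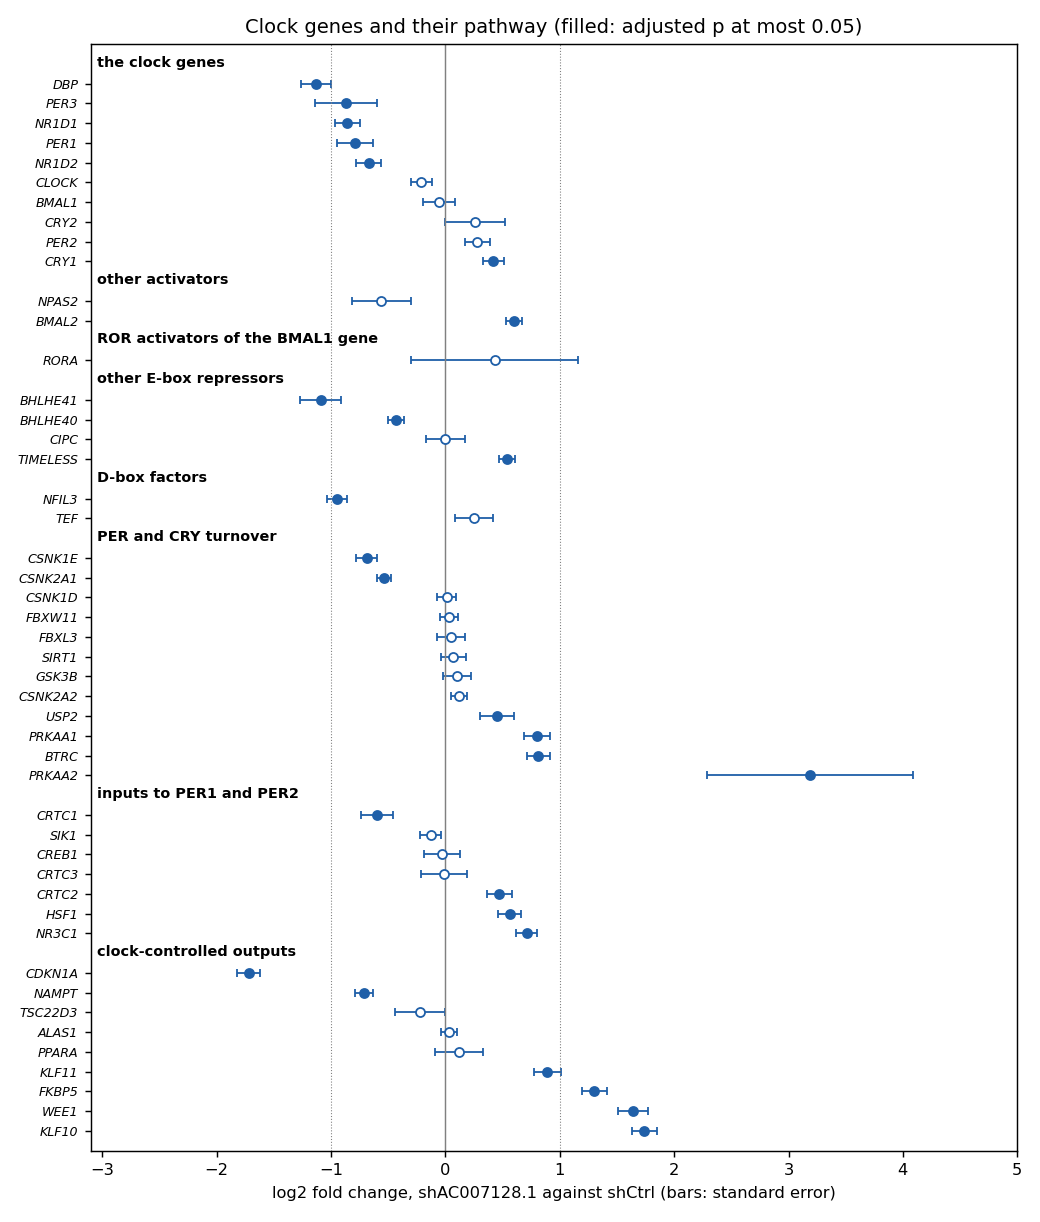
Log2 fold change of shAC007128.1 against shCtrl for the 10 clock genes and the 37 tested genes of the other clock lists, with bars for the standard error and filled points for an edgeR adjusted p of at most 0.05. Within the clock genes the values run from -1.13 for DBP to 0.42 for CRY1, and among the outputs from -1.72 for CDKN1A to 1.74 for KLF10.

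The cell cycle genes moved with the groups as well. Of 12 listed genes 11 were higher in shAC007128.1 cells, all 11 by at least 2-fold, where 21.0% of all genes were higher and 5.57% higher by 2-fold. The samples did not overlap for any of the 12 (55.2% of all genes). The median log2 fold change was 1.33. The part of this difference in the levels of clock genes was not tested.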

How the data were processed

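The members and all gene lists were chosen with earlier results of these data known. The authors cleaned the reads of rRNA, adapters and poor bases, then aligned them to hg38; the methods name TopHat v2.0.9 and the submitters' processing notes TopHat2 2.0.6. They deposited estimated counts for each Ensembl identifier, as whole numbers without normalization. The counting program and its use of strand are not given in the sources used here. Low counts pile up at multiples of 4. The submitters' processing notes list mm10 beside GRCh38, and the identifiers are human. Sample columns were matched by title or description, and 0 were left over.

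Symbols, exons and overlaps come from GENCODE v44 (60357 of 67140 identifiers found, 89.9%), and promoter windows from RefSeq. Genes were filtered with filterByExpr, scaled by TMM (factors 0.967 to 1.042) and tested in edgeR 4.0.16 (glmQLFit, glmQLFTest; R 4.3.3), with Benjamini-Hochberg adjustment over 19254 genes. Standard errors are the log2 fold change over the root of F. Paralog ratios were tested by two-sided exact permutation. Alternatives were DESeq2 1.42.0, limma-voom (limma 3.58.1), size factors of DESeq2 in edgeR, scaling by totals alone, testing without a filter or with a minimum of 10 counts in all samples, counts divided by 4, the replicate block and each sample left out. Replicate pairs differed well beyond counting noise (chi-square of 36.9 to 102 per gene), and all 6 samples were kept.

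All 10 members are named. In the other clock pathway lists up to 3 genes with the smallest p are given with their levels and the others that passed by name. The cell cycle and marker lists are given by counts and summed levels, and the marker genes named from them were chosen after their values were seen. DBP, the member with the largest change past the test, was the reference for likeness (Euclidean distance of centred log2 CPM, prior count 2). Single values of 2 listed genes are not reported here.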

Additional observations from a re-analysis of the deposited data

How the results depend on the processing

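Of the 10 clock genes, DBP, NR1D1, NR1D2, PER1 and CRY1 kept their direction and passed the test under all 14 alternatives, while BMAL1, PER2 and CRY2 passed under none. CLOCK and PER3 depended on the setting: CLOCK passed without shAC007128.1 replicate 3 and with library size only, and PER3 passed under 7 of the 14 (without the filter on low counts -0.91, edgeR adjusted p = 0.0614). CRY2 reversed to -0.12 without shAC007128.1 replicate 2 and was at 0.45 without shAC007128.1 replicate 3. Without shAC007128.1 replicate 3 the number of clock genes lower by 2-fold was 2 (range 1 to 2 over the left-out samples), with PER3 added. Leaving out 1 sample moved the PER1 to PER3 difference between -0.23 and 0.39 (-0.23 without shAC007128.1 replicate 1, -0.02 without shCtrl replicate 1) and CRY1 to CRY2 between -0.06 and 0.59 (-0.06 without shAC007128.1 replicate 3). The causes were not tested. Over the alternatives 2854 to 4297 genes were lower and 3092 to 4315 higher.

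With the replicate number as a replicate block, 4 clock genes were lower and 1 higher, PER3 being lost (-0.88, edgeR adjusted p = 0.0863), and 3256 genes were lower and 3524 higher. The correlations of same-numbered samples, as deviations from their group means, were 0.0306, -0.0254 and -0.0299, and not every sample correlated best with its own number. These values show no pairing, but with 3 samples a group they cannot decide whether same-numbered samples were handled together. For the ratios the smallest p that the block allows is 0.25. With counts divided by 4, PER3, at 58 to 240 counts a sample, still passed (-0.91, edgeR adjusted p = 0.0258).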
